A study of Mus musculus with 6 samples.

Results

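The receptors that hold the constant (Fc) part of antibodies were measured in mouse macrophages as 8 genes: Fcgr1, Fcgr3, Fcgr4, Fcgr2b, Fcer1g, Fcgrt, Fcer2a and Fcrls. They were taken by gene symbol from a table of 31883 genes, and each symbol was found in it. Of the 8, 7 reached an FPKM of 1 in 3 or more libraries and were tested among 10777 such genes, while Fcer2a was not. FPKM counts the sequenced fragments of a gene per length of its transcript and per all mapped fragments, so levels can be set against each other between genes.

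The series compared 3 libraries labelled CD22 knockout with 3 wild type libraries, to ask how the loss of CD22 changes the transcriptome of IL-4-treated macrophages. CD22 is a sialic acid-binding inhibitory receptor best known from B cells. The knockout is global in C57Bl/6 mice, and the wild type carries no other allele in the labels. Cells of both groups were macrophages grown from bone marrow in medium conditioned by L929 fibroblasts, then held at 25% of that medium with 20 ng/mL IL-4 for 48 h. Whether the 3 libraries of each group stem from different mice is not in the labels, and the p-values below speak only of the variation among these libraries, part or all of which may be technical.

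Activating IgG receptors signal through the ITAM of a partner chain, the Fc receptor gamma chain encoded by Fcer1g, which recruits the kinase Syk and drives phagocytosis of antibody-coated targets. The inhibitory receptor Fcgr2b carries an ITIM and recruits the phosphatase SHIP1 to the same complexes, so the ratio of activating to inhibitory receptors sets how strongly a macrophage answers to immune complexes. Fcgrt does neither: with beta-2 microglobulin it binds IgG in acidic endosomes and returns it to the surface.

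The libraries labelled CD22 knockout held 8.85, 8.21 and 9.53 FPKM of Cd22, against 8.95, 9.36 and 10.6 FPKM in wild type libraries. The groups overlapped (log2 fold change -0.11, SE 0.0873, adjusted p 0.695, limma), and a gene-level value does not check a deletion of part of the gene. The directions below therefore refer to the labels. Of the 8 macrophage markers, all were tested and none was called. Their summed level was 6756 to 9065 FPKM in the knockout-labelled libraries and 7230 to 9744 FPKM in wild type libraries. Mitochondrially encoded genes took 17.2%, 20.4% and 15.6% of the FPKM sum in the knockout-labelled libraries, against 11.8%, 11.7% and 16.5% in wild type libraries. Wild type library 1 carried the highest sums of skeletal muscle (5.46 FPKM) and adipocyte markers (48.1 FPKM), and wild type library 2 carried 8.69 FPKM of epididymis markers. No batch code is shared by any pair of libraries, and batch and group cannot be told apart.

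Fcrls was the only one of the 7 tested genes that was called, and it was 1.42-fold higher in the knockout-labelled libraries. Its limma adjusted p of 0.0498 sat at the threshold, and the call held in 6 of 15 alternatives. For the other genes, not passing with 3 libraries a group does not show that they were unchanged. The 3 activating IgG receptors, their shared gamma chain and the inhibitory receptor Fcgr2b did not pass the test, and the log2 ratio of activating to inhibitory receptor differed by 0.01 between the groups. Fcgrt was 1.16-fold higher on average and did not pass the adjusted threshold. Fcer2a was at or near 0 throughout. Over all genes, 44 of 10777 (0.408%) were called at an adjusted p below 0.05, 16 higher (0.148%) and 28 lower (0.26%).

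**Figure D1:**
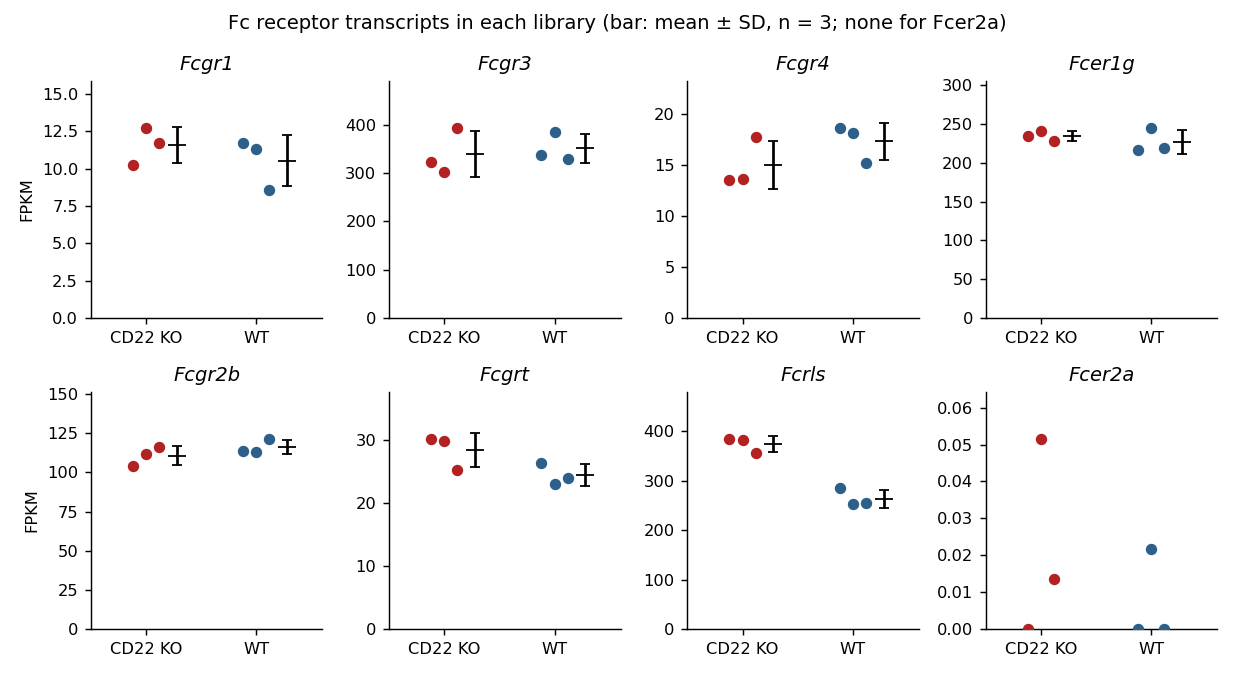
FPKM of each of the 8 genes (linear vertical axes from 0, one panel per gene) in the 3 CD22 knockout-labelled and the 3 wild type libraries, with mean ± SD beside the points except for Fcer2a. The Fcrls points of the knockout-labelled libraries, 356 to 384 FPKM, lie above the wild type points, 252 to 285 FPKM, and in the other 7 panels the groups overlap.

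Over the 6 libraries Fcgr3 was the highest of the set and stood at the 99.0 percentile of the mean levels of all genes tested. Fcrls followed at the 98.9 percentile, Fcer1g at 98.6, Fcgr2b at 96.8, Fcgrt at 85.2, Fcgr4 at 75.5 and Fcgr1 at 65.6. Fcgr3 and Fcrls were not separated: the mean level ratio was 1.08 and Fcgr3 was the higher in 4 of 6 libraries. Fcrls stood at 1.19, 1.27 and 0.907 times the Fcgr3 level in the knockout-labelled libraries, against 0.844, 0.653 and 0.772 times in wild type libraries, so Fcrls was the higher of the pair only in knockout-labelled libraries 1 and 2. Every other neighbour in that order was separated in all 6 libraries, by mean level ratios of 1.38 for Fcrls over Fcer1g, 2.03 for Fcer1g over Fcgr2b, 4.28 for Fcgr2b over Fcgrt, 1.64 for Fcgrt over Fcgr4 and 1.46 for Fcgr4 over Fcgr1. The lowest Fcgr4 value, 13.6 FPKM, stood just above the highest Fcgr1 value, 12.7 FPKM.

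Fcrls encodes a mouse Fc receptor-like protein with immunoglobulin-type and scavenger receptor-type domains, known in the brain as a marker of microglia. It lies on the minus strand at chr3:87250758-87263738 (GRCm38). Its level was 384, 383 and 356 FPKM in the knockout-labelled libraries, against 285, 252 and 255 FPKM in wild type libraries. The groups did not overlap, which held for 17.1% of all genes tested. The means were 374 ± 16.1 FPKM in the knockout-labelled libraries and 264 ± 18.2 FPKM in wild type libraries (SD, n = 3 each). The log2 fold change on the log2(FPKM + 1) scale was 0.50 (SE 0.0913, 95% interval 0.30 to 0.71), with a limma adjusted p of 0.0498, and Fcrls ranked 43 of 10777 by p. In bulk RNA, more cells with the transcript and more RNA per cell cannot be told apart.

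The call sits at the threshold, while the size of the change moved little. Over 15 other ways of processing the values or leaving out libraries, the log2 fold change of Fcrls ran between 0.47 and 0.56 and the adjusted p between 0.0302 and 0.395 (limma). It passed in 6 of the 15. Of the 6 fits that each left out 1 library, only that without knockout-labelled library 3 kept the call (adjusted p 0.0360). The adjusted p was 0.150 without knockout-labelled library 1, 0.198 without knockout-labelled library 2, and 0.102, 0.109 and 0.179 without wild type libraries 1, 2 and 3. Without wild type libraries 1 and 2, which carried the muscle and epididymis transcripts and the highest adipocyte sum, it was 0.395 with a log2 fold change of 0.55, resting on 1 wild type library that is assumed to vary like the rest. Rescaling without the mitochondrially encoded genes gave a log2 fold change of 0.51 and an adjusted p of 0.0377.

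In the authors' deposited table Fcrls had a fold of 1.42 (log2 0.50), a p-value of 3.22e-13 and a q-value of 4.33e-10, which ranked it 19 by p. The authors' deposited table holds 221 genes with a q below 0.05 (0.867% of 25499) and marks 74 of them as significant. Fcrls is not among the marked ones, whose absolute log2 folds in the authors' deposited table begin at 1.01.

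**Figure D2:**
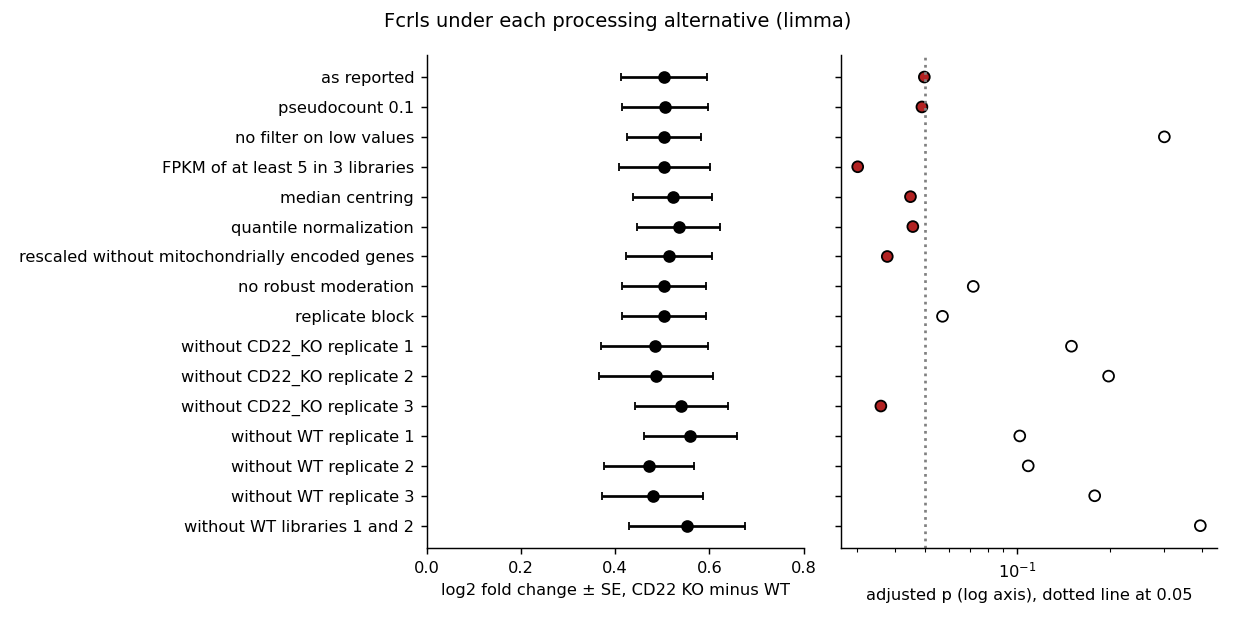
Log2 fold change of Fcrls, CD22 knockout-labelled minus wild type (left panel, point ± SE), and its limma adjusted p (right panel, log axis, filled points below 0.05), for the reported setting and 15 alternatives (rows). All point estimates lie between 0.47 and 0.56 and 6 of the 15 alternatives have an adjusted p below 0.05.

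Other microglia-associated genes were read beside Fcrls, as a list of 8 markers that does not hold it. Their summed level was 12.1 to 15.4 FPKM in the knockout-labelled libraries and 8.46 to 9.59 FPKM in wild type libraries, without overlap. Among single genes, groups did not overlap for 17.1% of all those tested. Of the 8, 5 were tested and 1 was called, Olfml3, a secreted olfactomedin-like protein, beside 0.408% called over all genes tested. Olfml3 averaged 2.19 ± 0.596 FPKM in the knockout-labelled libraries and 0.199 ± 0.0513 FPKM in wild type libraries (SD, n = 3 each, log2 fold change 1.40, limma adjusted p 6.9e-04). It reached an FPKM of 1 only in the knockout-labelled libraries. Its entry into the test thus came through the group where it is high. Neither its call nor the list sum, which holds it, is support for the Fcrls result. Tmem119, the highest of the list, averaged 4.77 ± 0.739 FPKM in the knockout-labelled libraries and 3.98 ± 0.420 FPKM in wild type libraries (adjusted p 0.510, limma). P2ry12, a nucleotide receptor, averaged 1.98 ± 0.357 FPKM in the knockout-labelled libraries and 1.31 ± 0.188 FPKM in wild type libraries (adjusted p 0.250, limma). Sall1, a defining transcription factor of microglia, and Siglech were listed at 0 in all 6 libraries. Adipocyte markers went the other way, with sums of 3.79 to 13.1 FPKM in the knockout-labelled libraries and 14.1 to 48.1 FPKM in wild type libraries. Their part in the Fcrls result was not tested.

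Among the 6408 tested genes whose FPKM averaged 5 or more, the genes whose levels followed Fcrls most closely over the 6 libraries were Tmem176b, a membrane protein of antigen-presenting cells, and Ap4b1, an adaptor subunit of vesicle coats, with Pearson r of 0.986 and 0.983. Both were picked as the highest of all those genes. Tmem176b averaged 14.2 FPKM in the knockout-labelled libraries and 7.61 FPKM in wild type libraries (limma adjusted p 0.0591), and Ap4b1 averaged 7.48 FPKM in the knockout-labelled libraries and 5.54 FPKM in wild type libraries (limma adjusted p 0.0750). Within the set, Fcgrt ran closest to Fcrls (r 0.87, n = 6 libraries).

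Fcgr3 encodes the activating low-affinity IgG receptor III and Fcgr2b the inhibitory one. They lie on the minus strand of the same chromosome, Fcgr3 at chr1:171051174-171064935 and Fcgr2b at chr1:170958617-170976547 (GRCm38), with Fcgr4 between them. Their extracellular parts are nearly the same sequence, shown here because it bears on how their reads can be told apart: over 509 aligned coding bases, 491 are identical (96.5%), while other pairs of the 4 IgG receptors share 57.0% to 64.3%. The longest run common to both, 129 bases from the transcripts of GENCODE release M21, covers coding bases 263 to 391 of Fcgr3 (spanning chr1:171054167-171057792, introns included, minus strand) and 278 to 406 of Fcgr2b (spanning chr1:170966674-170968081, introns included, minus strand).
Fcgr3 and Fcgr2b shared run: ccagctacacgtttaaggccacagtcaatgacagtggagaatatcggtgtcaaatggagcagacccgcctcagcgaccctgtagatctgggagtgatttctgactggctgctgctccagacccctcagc
Of all 50-base stretches, 12.8% in Fcgr3 and 4.75% in Fcgr2b occur in the other transcript, and of 100-base stretches 3.53% and 1.28%. Counting any other gene, 11.4% of the 50-base and 3.54% of the 100-base stretches of Fcgr2b occur elsewhere. The levels of this pair are therefore uncertain by how the authors' counting split such reads. In the longest protein-coding transcripts of Fcgr1, Fcgr4, Fcer1g, Fcgrt and Fcrls, no 50-base stretch occurred in a transcript of another gene. Only the sense strand of each transcript was searched, so antisense overlap was not checked.

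**Figure D3:**
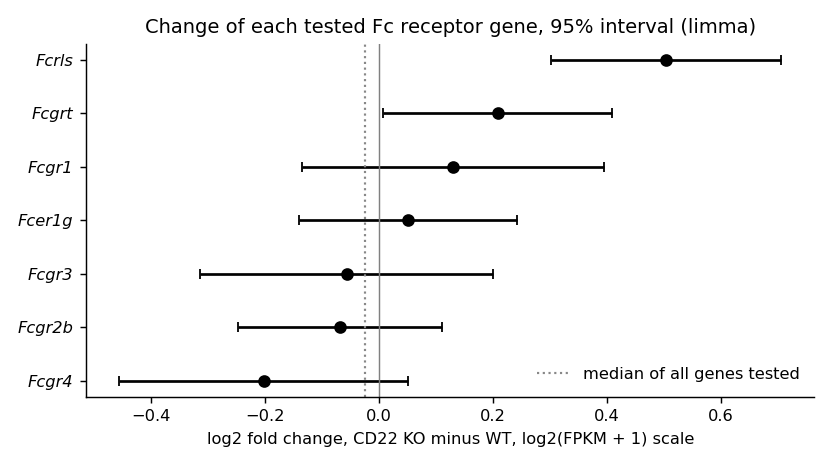
Log2 fold change on the log2(FPKM + 1) scale, CD22 knockout-labelled minus wild type (horizontal axis, point and 95% interval from limma), of the 7 tested genes (vertical axis). Fcrls stands at 0.50, Fcgrt at 0.21, and the intervals of Fcgr1, Fcgr3, Fcgr4, Fcer1g and Fcgr2b include 0.

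Fcgr3 held 322, 302 and 392 FPKM in the knockout-labelled libraries, against 337, 386 and 330 FPKM in wild type libraries. The highest and the lowest value both came from the knockout-labelled libraries. The log2 fold change was -0.06 (SE 0.116, 95% interval -0.31 to 0.20, limma adjusted p 0.898), and it changed sign when knockout-labelled library 2 (0.02) or wild type library 2 (0.01) was left out.

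Fcgr4 encodes the mouse activating receptor IV for IgG and lies at chr1:171018920-171029761 on the plus strand. Its level was 13.6, 13.6 and 17.7 FPKM in the knockout-labelled libraries, against 18.6, 18.1 and 15.2 FPKM in wild type libraries. Knockout-labelled library 3 lay above wild type library 3, so the groups overlapped. The mean was 15.0 ± 2.37 FPKM in the knockout-labelled libraries and 17.3 ± 1.81 FPKM in wild type libraries (SD, n = 3 each; log2 fold change -0.20, SE 0.114, 95% interval -0.46 to 0.05, limma adjusted p 0.552).

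Fcgr1 encodes the high-affinity IgG receptor, which can bind IgG outside immune complexes, and lies at chr3:96282909-96293969 on the minus strand. It held 10.3, 12.7 and 11.7 FPKM in the knockout-labelled libraries, against 11.7, 11.3 and 8.57 FPKM in wild type libraries. The groups overlapped (log2 fold change 0.13, SE 0.119, 95% interval -0.13 to 0.39, limma adjusted p 0.737). Wild type library 3, the lowest, decides that value: without it the log2 fold change was 0.0003, and without wild type libraries 1 and 2 it was 0.39.

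Fcer1g, at chr1:171229572-171234365 on the minus strand, held 235, 241 and 228 FPKM in the knockout-labelled libraries, against 217, 244 and 219 FPKM in wild type libraries. The lowest and the highest value were both wild type. The log2 fold change was 0.05 (SE 0.0862, 95% interval -0.14 to 0.24, limma adjusted p 0.867). The activating receptors summed to 1.48, 1.36 and 1.85 times the Fcer1g level in the knockout-labelled libraries and to 1.70, 1.70 and 1.62 times in wild type libraries.

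Fcgr2b held 104, 112 and 116 FPKM in the knockout-labelled libraries, against 114, 113 and 121 FPKM in wild type libraries. The lowest 2 values were from knockout-labelled libraries, and knockout-labelled library 3 lay within the wild type range. The log2 fold change was -0.07 (SE 0.0809, 95% interval -0.25 to 0.11, limma adjusted p 0.811). An antisense gene, Gm38204, overlaps Fcgr2b; the library kit keeps the strand, but whether the counting used it is not stated.

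The balance of activating to inhibitory receptor was taken per library as the summed FPKM of Fcgr1, Fcgr3 and Fcgr4 over that of Fcgr2b. It was 3.32, 2.94 and 3.62 in the knockout-labelled libraries, against 3.23, 3.67 and 2.92 in wild type libraries. Both groups spread over the same range, around means of 3.29 ± 0.344 in the knockout-labelled libraries and 3.27 ± 0.377 in wild type libraries (SD, n = 3 each). On the log2 scale the difference of means was 0.01, with a pooled SD of 0.159. Without wild type libraries 1 and 2 it was 0.17, against wild type library 3 alone. No detection limit was computed, and with 3 libraries a group a difference larger than the pooled SD may also be missed.

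Fcgr3 made nearly all of the activating sum, with 93.1%, 92.0% and 93.0% in the knockout-labelled libraries, against 91.8%, 92.9% and 93.3% in wild type libraries. Fcgr4 supplied 3.92%, 4.16% and 4.20% in the knockout-labelled libraries, against 5.05%, 4.37% and 4.31% in wild type libraries. That share was lower in all 3 knockout-labelled libraries than in any wild type library, by a small margin between the closest values. The Fcgr4 level itself overlapped between the groups, and 10.7% of all genes tested were lower without overlap. Fcgr1 supplied 2.97%, 3.87% and 2.79% in the knockout-labelled libraries, against 3.19%, 2.73% and 2.42% in wild type libraries, with overlap.

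Set against Fcgr2b alone, Fcgr3 differed by 0.01 on the log2 scale, Fcgr4 by -0.15 and Fcgr1 by 0.21, knockout-labelled minus wild type, and each of these ratios overlapped between the groups. The Fcgr1 ratio lay between 0.0986 and 0.114 in the knockout-labelled libraries and between 0.0707 and 0.103 in wild type libraries, where wild type library 3 was the low one. Over the 6 libraries Fcgr3 followed Fcgr4 with r 0.78 and Fcgr2b with r 0.30, as a description of levels that share their libraries.

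**Figure D4:**
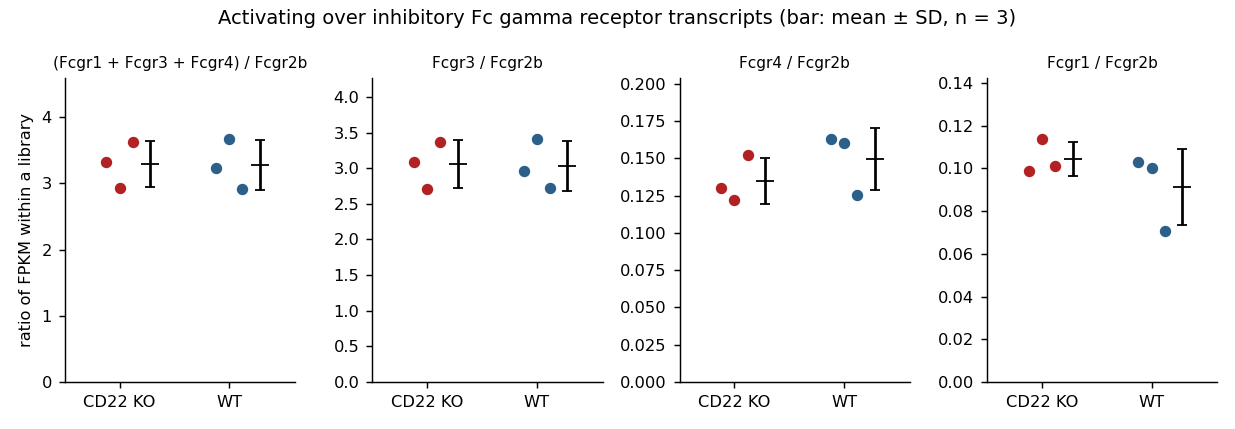
Activating to inhibitory ratio per library: the summed FPKM of Fcgr1, Fcgr3 and Fcgr4, and each of the 3 alone, over the FPKM of Fcgr2b, for CD22 knockout-labelled (left in each pair) and wild type libraries, with mean ± SD. The summed ratio lies between 2.92 and 3.67 in all 6 libraries, and the groups overlap in every ratio.

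The sequence before the start sites that RefSeq lists for these genes was read from its promoter table (GRCm38.p6; all 8 matched), in windows of 250 bases before to 50 after the first listed start. The gene bounds given above take in every GENCODE transcript, and for Fcrls, Fcgr3 and Fcgr2b a transcript that begins further out places the printed stretch inside those bounds. Positions are therefore from the RefSeq start, not from the outer edge of the gene. The stretches below leave out annotated exons and show Fcrls beside 2 activating receptors and the inhibitory one. The letters searched, on both strands, were GAGGAA, the core bound by the macrophage factor PU.1. Capitals mark GAGGAA, which reads TTCCTC when it lies on the other strand.
Fcrls, chr3:87263600-87263677, minus strand: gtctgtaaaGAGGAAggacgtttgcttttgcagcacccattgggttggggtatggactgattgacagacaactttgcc
Fcgr3, chr1:171059404-171059626, minus strand: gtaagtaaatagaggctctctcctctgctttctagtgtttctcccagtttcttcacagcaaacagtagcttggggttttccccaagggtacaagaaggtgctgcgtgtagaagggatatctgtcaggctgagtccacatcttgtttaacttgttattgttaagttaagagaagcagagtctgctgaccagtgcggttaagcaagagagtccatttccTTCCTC
Fcgr1, chr3:96293970-96294219, minus strand: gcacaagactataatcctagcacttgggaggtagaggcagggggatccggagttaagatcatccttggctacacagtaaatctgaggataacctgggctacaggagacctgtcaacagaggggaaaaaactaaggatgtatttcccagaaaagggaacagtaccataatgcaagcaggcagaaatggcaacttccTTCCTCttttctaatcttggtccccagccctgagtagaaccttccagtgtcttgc
Fcgr2b, chr1:170976128-170976190, minus strand: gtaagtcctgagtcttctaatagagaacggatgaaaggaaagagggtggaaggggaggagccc
GAGGAA was found in the windows of 4 of the 8 genes, with its first base at -144 in Fcrls, -6 in Fcgr3, -22 in Fcgr4 and -55 in Fcgr1, and in 28.3% of 32817 windows of all genes.

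Fcgrt encodes the heavy chain of the neonatal Fc receptor, the IgG salvage receptor of endosomes. It lies at chr7:45092990-45103851 on the minus strand, 14.2 Mb from Cd22 on the same chromosome, and an antisense gene, Gm45669, overlaps it. Its level was 30.2, 29.9 and 25.3 FPKM in the knockout-labelled libraries, against 26.4, 23.0 and 24.0 FPKM in wild type libraries. Knockout-labelled libraries 1 and 2 were the highest of all, and library 3 lay under wild type library 1. The means were 28.5 ± 2.74 FPKM in the knockout-labelled libraries and 24.5 ± 1.76 FPKM in wild type libraries (SD, n = 3 each). The log2 fold change was 0.21 (SE 0.0910, 95% interval 0.01 to 0.41). Its unadjusted limma p was 0.0436, as 11.0% of all genes reached under 0.05, and its adjusted p was 0.431. In the authors' deposited table Fcgrt had a p-value of 0.0106 and a q-value of 0.368.

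The partner of Fcgrt, B2m, was in large excess. The B2m level was 45.0, 48.9 and 60.7 times the Fcgrt level in the knockout-labelled libraries, against 57.3, 65.7 and 57.0 times in wild type libraries. B2m itself averaged 1453 ± 90.4 FPKM in the knockout-labelled libraries and 1465 ± 83.2 FPKM in wild type libraries (SD, n = 3 each; limma adjusted p 0.984). Across the 6 libraries the r of Fcgrt was -0.73 with Fcgr2b, -0.73 with Fcgr3, -0.72 with Fcgr4 and 0.33 with Fcgr1.

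Fcer2a encodes CD23, the lectin-type low-affinity IgE receptor best known from B cells, and lies at chr8:3681737-3694175 on the minus strand. It was listed at 0, 0.0515 and 0.0137 FPKM in the knockout-labelled libraries and at 0, 0.0218 and 0 FPKM in wild type libraries. No fold is given at such levels. B cell markers, read because CD22 and CD23 are both B cell proteins, summed to 9.85 to 11.5 FPKM in the knockout-labelled libraries and 8.86 to 12.1 FPKM in wild type libraries, with none of 3 tested genes called. Mast cell and basophil markers summed to at most 0.407 FPKM, and Fcer1a and Ms4a2, the other chains of the high-affinity IgE receptor, were listed at 0 in every library. NK cell markers summed to at most 0.208 FPKM and neutrophil markers to at most 1.59 FPKM, so these were at or near 0, while the B cell sum was not.

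Of 12 further Fc receptors and relatives, 2 were tested and neither was called. Trim21, the cytosolic IgG receptor, averaged 4.02 ± 0.114 FPKM in the knockout-labelled libraries and 4.27 ± 0.548 FPKM in wild type libraries, and Fcrlb, an intracellular Fc receptor-like protein, averaged 1.71 ± 0.402 FPKM in the knockout-labelled libraries and 1.76 ± 0.260 FPKM in wild type libraries (SD, n = 3 each).

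The signalling genes around these receptors were taken as 6 lists of 110 genes in all. Of them 97 were tested, none was called by limma, and 4 were higher and 3 lower at an unadjusted p below 0.05. Their median log2 fold change was -0.04, with 34 above 0 and 63 below, beside a median of -0.02 over all genes tested, 4536 of which were above 0 and 6241 below. Groups did not overlap for 4 higher and 11 lower of the 97, beside 6.43% higher and 10.7% lower over all genes tested.

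Tyrobp, the other ITAM partner chain of myeloid receptors, held the highest mean of the partner chains after B2m, with 292 ± 32.0 FPKM in the knockout-labelled libraries and 338 ± 53.0 FPKM in wild type libraries (SD, n = 3 each; log2 fold change -0.20, limma adjusted p 0.586). Hcst, a partner chain that signals through PI3K, averaged 2.93 ± 0.816 FPKM in the knockout-labelled libraries and 3.43 ± 0.698 FPKM in wild type libraries (adjusted p 0.746, limma). All 3 tested partner chains lay below 0, and none passed.

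Of the 31 tested genes of activating ITAM signalling, 11 lay above 0 and 20 below, with a median log2 fold change of -0.03. The 2 with the smallest p went opposite ways. Fgr, a Src-family kinase of myeloid cells, held 12.2, 11.3 and 9.21 FPKM in the knockout-labelled libraries, against 8.45, 8.34 and 8.42 FPKM in wild type libraries, without overlap (log2 fold change 0.33, limma adjusted p 0.236). It passed when knockout-labelled library 3 was left out (log2 fold change 0.44, limma adjusted p 0.0407). Cblb, a ubiquitin ligase that restrains such signalling, averaged 21.4 ± 0.696 FPKM in the knockout-labelled libraries and 27.2 ± 3.51 FPKM in wild type libraries, also without overlap (SD, n = 3 each, log2 fold change -0.33, limma adjusted p 0.237). Syk, the kinase that docks on the gamma chain, averaged 37.1 ± 1.69 FPKM in the knockout-labelled libraries and 40.0 ± 1.81 FPKM in wild type libraries (limma adjusted p 0.659).

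Of the 12 genes of inhibitory ITIM signalling, all were tested, 8 lay above 0 and 4 below, and the median log2 fold change was 0.02. Inpp5d, which encodes the phosphatase SHIP1 that Fcgr2b recruits, averaged 19.4 ± 1.37 FPKM in the knockout-labelled libraries and 19.7 ± 1.43 FPKM in wild type libraries (SD, n = 3 each; limma adjusted p 0.943). Ptpn22, a phosphatase that acts on Src-family kinases, averaged 3.19 ± 0.503 FPKM in the knockout-labelled libraries and 2.13 ± 0.585 FPKM in wild type libraries, without overlap (log2 fold change 0.43, limma adjusted p 0.316). Rasa1, a Ras GTPase-activating protein, averaged 23.7 ± 1.43 FPKM in the knockout-labelled libraries and 26.9 ± 2.39 FPKM in wild type libraries (limma adjusted p 0.488).

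The phagocytic cup list of actin regulators had the lowest median of the 3 larger lists, with 7 of 33 tested genes above 0, 26 below and a median log2 fold change of -0.09, and none called. Dock2, an exchange factor for Rac, averaged 41.7 ± 2.93 FPKM in the knockout-labelled libraries and 51.5 ± 7.25 FPKM in wild type libraries, without overlap (log2 fold change -0.29, limma adjusted p 0.343). Coro1a, an actin-binding protein of phagosomes, went the other way at 33.5 ± 4.93 FPKM in the knockout-labelled libraries and 27.7 ± 1.35 FPKM in wild type libraries (log2 fold change 0.25, limma adjusted p 0.408). Of 16 regulators of Fc receptor genes, 8 lay above 0 and 8 below, and the nearest to the threshold were Jak1, a kinase of the IL-4 and interferon receptors (log2 fold change -0.18, limma adjusted p 0.476), and Il10ra, a chain of the IL-10 receptor (0.18, limma adjusted p 0.543). The groups did not overlap for Jak1 and overlapped for Il10ra.

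**Figure D5:**
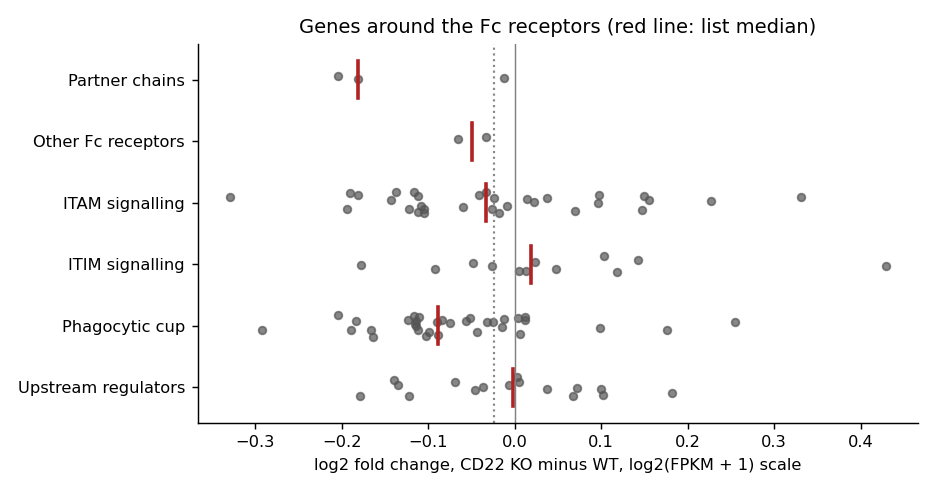
Log2 fold change on the log2(FPKM + 1) scale, CD22 knockout-labelled minus wild type (horizontal axis), of each tested gene (points) of the 6 surrounding lists (rows), with a red line at each list's median and a dotted line at the median of all genes tested. Of the 97 genes 63 lie below 0 and none was called.

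The genes that followed the remaining members most closely over the 6 libraries, the highest 2 of the same 6408, differed for every member. They were Npc2, a lysosomal cholesterol carrier, and Aga for Fcgr3 (r 0.994 and 0.974), Abi1, a subunit of the WAVE actin complex, and 9930111J21Rik2 for Fcgr4 (0.998 and 0.996), and Amdhd2 and Slc28a2 for Fcgr1 (0.952 and 0.947). For Fcgr2b they were Flvcr1, a heme exporter, and Lhfpl2 (0.984 and 0.979), for Fcer1g Tusc2 and Npm3 (0.992 and 0.986), and for Fcgrt Slc13a3, a carrier of dicarboxylates, and Fbxl14 (0.992 and 0.987). With 6 libraries and 6408 genes, values this high come with the choice of the highest, so they describe these libraries only.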

How the data were processed

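The FPKM values are the authors' own, deposited as 1 table that holds no counts, and depth is unknown. Low FPKM values give depths of 1.11, 1.10 and 1.10 for the knockout-labelled libraries relative to wild type library 1, and 1.02 and 0.971 for wild type libraries 2 and 3. The fold (a ratio of mean FPKM), its log2, the p-value and the q-value are the authors' own, deposited in that table. Per the submitters' processing notes, the tools included HISAT2, StringTie, edgeR, DESeq2, cutadapt and FastQC, without roles or versions. No build is given in the sources used here, and positions were looked up by ID in GENCODE M21 (31792 of 31883 IDs).

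Values as log2(FPKM + 1), which understates changes of low genes, went into limma 3.58.1 (R 4.3.3; trend, robust, 2-sided, Benjamini-Hochberg over all genes tested) where FPKM was at least 1 in at least 3 libraries. The code was tested on simulated data. Called means an adjusted p below 0.05, and folds are ratios of mean FPKM. Named were Cd22, the 8 genes, called list genes, the 2 smallest p per list and the 2 most alike genes per member. Syk, Inpp5d and B2m, as direct partners, and P2ry12 were added after their values were seen. Members and lists were chosen with earlier results of these data known. Other promoter motifs are not reported here.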

Additional observations from a re-analysis of the deposited data

How the results depend on the processing

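The alternatives were another pseudocount, no filter, a stricter filter, median centring, quantile normalization, rescaling without mitochondrially encoded genes, no robust moderation, a replicate block and leaving out libraries. Over 19 named genes, 263 of 281 gene results kept direction and side of the threshold. The 44 calls over all genes became 3 with no filter, where 25499 genes were tested, 11 without wild type libraries 1 and 2, and 28 to 87 when each library was left out. The 1 called Fc receptor gene, Fcrls, became 0 with no filter (adjusted p 0.301), without robust moderation (0.0719), with the replicate block (0.0571) and without wild type libraries 1 and 2 (0.395), and ran between 0 and 1 when each library was left out. The surrounding lists gave 0 to 1 calls, the 1 being Fgr. The other 6 members were called in 0 of 90 fits (lowest adjusted p 0.209).

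The log2 fold change of Fcgr3 ran between -0.17 and 0.0223 when each library was left out, reversing without knockout-labelled library 2 (0.0223) or wild type library 2 (0.01), and was 0.0286 without wild type libraries 1 and 2. The direction also reversed for Trim21 without wild type libraries 1 and 2 (0.11), and for Fcrlb without knockout-labelled library 2 (0.0767), wild type library 1 (0.01), wild type library 2 (0.0006) or both wild type libraries 1 and 2 (0.13), with a range of -0.14 to 0.0767 when each library was left out. The balance difference of 0.01 on the log2 scale moved to 0.21 with Fcgr1 alone over Fcgr2b, ran between -0.07 and 0.10 when each library was left out, and was 0.17 without wild type libraries 1 and 2. The cause was not tested.

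Same-numbered libraries deviated together with r of 0.0559, -0.0336 and 0.0703, against -0.0937 to 0.0253 for differently numbered ones. With 3 libraries a group, these values cannot decide whether the numbers pair the libraries. With the replicate block the calls over all genes were 63, and the balance difference was 0.01. With 3 libraries a group and unknown depth, differences in the balance or in the scarcer receptors may have been missed.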

Other observations

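The genes around Fcrls were read after its own values were seen. Within 500 kb of it, the table holds 15 other genes, of which 5 were tested and 0 were called by limma. Cd5l, a secreted scavenger receptor of macrophages 94.1 kb away, held 4.57, 4.51 and 5.83 FPKM in the knockout-labelled libraries, against 6.43, 4.74 and 4.05 FPKM in wild type libraries. Etv3, a transcriptional repressor, held 18.6, 19.5 and 20.5 FPKM in the knockout-labelled libraries, against 21.2, 18.2 and 20.3 FPKM in wild type libraries. Both overlapped between the groups, with log2 fold changes of -0.01 for Cd5l and -0.02 for Etv3 (limma adjusted p 0.987 and 0.948). The nearest of the 15, the processed pseudogene Gm10705 at 42.8 kb, held 4.797, 3.92 and 4.48 FPKM in the knockout-labelled libraries, against 1.61, 6.23 and 2.00 FPKM in wild type libraries. Its log2 fold change of 0.49 is about that of Fcrls, but the groups overlapped through wild type library 2 (limma adjusted p 0.752). The other tested genes were Arhgef11, with a log2 fold change of -0.17, and Cd1d1, with 0.04 (limma adjusted p 0.543 and 0.928).

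The neighbouring Fc receptor-like genes were too low to be tested. Fcrl5, 172 kb away, was listed at 0.474, 0.496 and 0.347 FPKM in the knockout-labelled libraries and at 0.316, 0.336 and 0.299 FPKM in wild type libraries. Its groups did not overlap, which held for 17.1% of all genes tested, and Fcrl5 was not among those. Of the other untested neighbours, Pear1 was higher and Dclk2 lower without overlap, at no more than 0.163 and 0.0370 FPKM. Fcrl1, 112.6 kb away, was listed at 0.320, 0.301 and 0.293 FPKM in the knockout-labelled libraries and at 0.188, 0.293 and 0.186 FPKM in wild type libraries, where the lowest knockout-labelled value lay just under the highest wild type one.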
